A study of Mus musculus with 3 samples.

Results

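The comparison is that of newborn mouse ovaries cultured with 100 μM di-(2-ethylhexyl) phthalate (DEHP), a plasticizer, against ovaries cultured with 0 μM, and the question was which miRNAs differ at the high dose. Of 627 mature miRNAs in the count table, 587 averaged 10 normalized counts or more, and their log2 ratio of 100 to 0 μM was taken. The 18 miRNAs already tabulated for this comparison were set aside, which left 569. Of these, 98 had a log2 ratio beyond 2 in either direction, 52 of them higher and 46 lower at 100 μM, and these 98 are described by abundance, arm, seed family, and locus.

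All 3 libraries came from pooled ovaries of newborn CD1 mice cultured for 72 h, and each concentration (0 μM with the vehicle DMSO, 10 μM, and 100 μM DEHP) has 1 library. Since no concentration was repeated, there is no p-value, and the 95% intervals given are exact Clopper-Pearson intervals that hold counting error alone. The libraries held 5064602 to 5952274 counts, of which the 10 most abundant miRNAs took 45.4% at 0 μM, 45.6% at 10 μM, and 70.5% at 100 μM. In tissue RNA of this kind, fewer cells of a type and less RNA per cell cannot be told apart. The lowest count at 0 μM was 10, so a miRNA present only after DEHP is not seen.

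MicroRNAs are cut from hairpins of longer primary transcripts, and either arm of the hairpin, named 5p or 3p, can be kept as the mature strand. The mature strand finds its target mRNAs mainly through the seed, and miRNAs with the same seed form a family. Hairpins that lie close together often share a primary transcript, as do those of the miR-17 cluster or of the imprinted Dlk1-Dio3 region.

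The sequences below, from RefSeq on GRCm38.p6, are written 5′ to 3′ with the seed, bases 2 to 8, in capitals. Of the 98 miRNAs, 88 had a sequence there. The first set holds both arms of hairpins whose arms went in opposite directions, so that the unlike seeds of the arms can be seen.
miR-708-5p: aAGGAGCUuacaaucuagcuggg
miR-708-3p: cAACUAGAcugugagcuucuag
miR-380-5p: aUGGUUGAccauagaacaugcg
miR-380-3p: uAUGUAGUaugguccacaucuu
miR-10b-5p: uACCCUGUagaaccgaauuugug
miR-10b-3p: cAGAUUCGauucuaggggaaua
miR-106b-5p: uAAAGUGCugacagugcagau
miR-106b-3p: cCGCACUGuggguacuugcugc
miR-221-5p: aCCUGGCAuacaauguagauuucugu
miR-221-3p: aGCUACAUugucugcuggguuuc

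The next set holds families by shared seed. The miR-17 family lay below the median ratio of all miRNAs throughout, the miR-291a/294/295 family lay above it throughout, and the miR-99/100 family was split.
miR-17-5p: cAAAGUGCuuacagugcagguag
miR-20a-5p: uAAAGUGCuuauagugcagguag
miR-106a-5p: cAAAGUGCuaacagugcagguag
miR-93-5p: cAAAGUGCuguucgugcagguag
miR-291a-3p: aAAGUGCUuccacuuugugugc
miR-294-3p: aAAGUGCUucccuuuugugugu
miR-295-3p: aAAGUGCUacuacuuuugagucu
miR-99a-5p: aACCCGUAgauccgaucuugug
miR-100-5p: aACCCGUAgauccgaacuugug
miR-99b-5p: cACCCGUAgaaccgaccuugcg

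The last set holds abundant miRNAs from the ends of the distribution. The miR-881-3p and miR-379-5p sequences belong to the X-linked and chromosome 12 groups, and miR-126a-3p and miR-19b-3p were among the most abundant of the lower miRNAs.
miR-881-3p: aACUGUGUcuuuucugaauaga
miR-379-5p: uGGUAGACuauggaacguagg
miR-10a-5p: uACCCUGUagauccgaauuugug
miR-182-5p: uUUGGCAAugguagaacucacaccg
miR-126a-3p: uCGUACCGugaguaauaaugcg
miR-19b-3p: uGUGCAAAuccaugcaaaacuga

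Counts were divided by median-of-ratios size factors, which were 1.38, 1.35, and 0.546 at 0, 10, and 100 μM. On this scale 61 of the 587 miRNAs, or 10.4%, had a log2 ratio above 2, and 55, or 9.37%, had one below -2. The median ratio of all 587 was -0.01 with an interquartile range of -1.06 to 1.12, and 279 lay between -1 and 1. The 52 higher miRNAs outside the tabulated list had ratios of 2.02 to 3.18 (median 2.42), and the 46 lower ones -5.10 to -2.01 (median -2.77), where the values under -4 belong to 4 miRNAs at 0 counts and rest on the 0.5 added. The whole counting interval lay beyond 2 for 39 of the 52 and for 18 of the 46, and beyond 1 for 51 and 37. The higher one whose interval reached under 1 was miR-1943-5p, with 10, 26, and 18 counts.

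Of the 46 lower miRNAs, 11 had 3 counts or fewer at 100 μM, which is taken as the floor and equals 5.50 normalized counts there. With these 11 placed at the floor the median of the 46 was -2.53. Just inside the threshold lay miR-361-3p (2.02) and miR-3473a (2.06) above and miR-652-5p (-2.01) and miR-25-5p (-2.04) below. Just outside lay miR-3470a (1.97), miR-1981-3p (1.95), miR-16-2-3p (-1.98), and miR-142a-3p (-1.98).

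**Figure D1:**
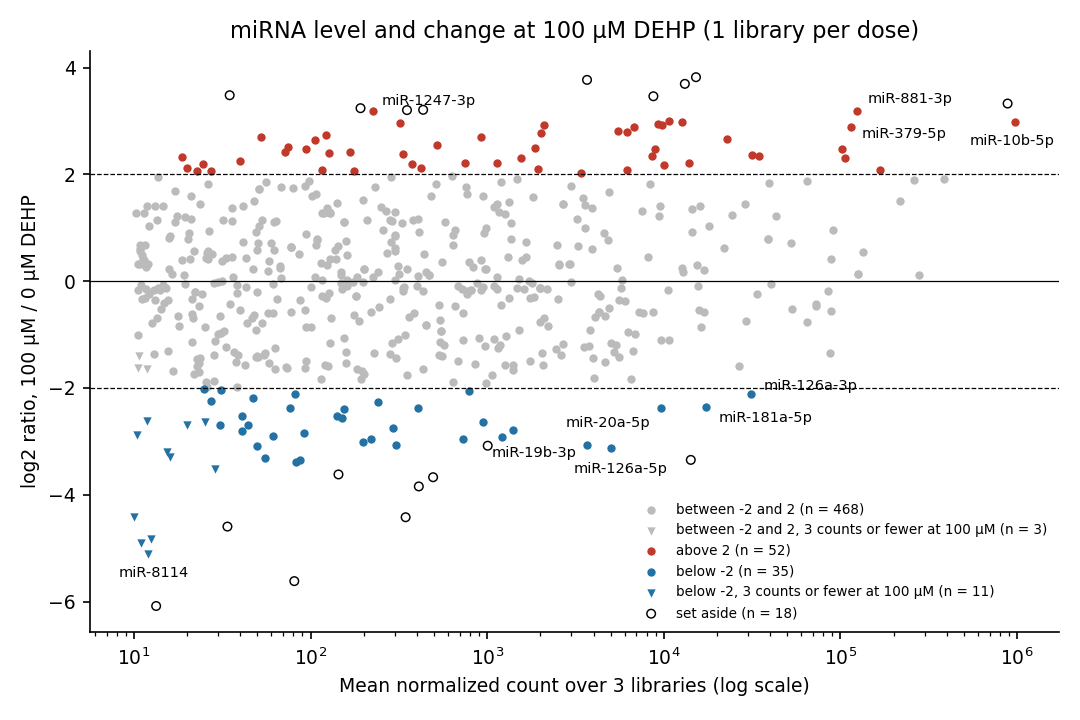
Log2 ratio of 100 to 0 μM DEHP (y axis) against the mean normalized count over the 3 libraries (x axis, log scale) for 587 miRNAs, 1 library per dose, with dashed lines at 2 and -2. Red points are the 52 higher and blue points the 46 lower miRNAs, blue triangles are the 11 with 3 counts or fewer at 100 μM, grey triangles are 3 others at that floor, and open circles are the 18 set aside.

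The most abundant of the higher miRNAs was miR-10b-5p, whose hairpin lies in an intron of Hoxd3 and Hoxd4 on chromosome 2 (chr2:74726070-74726137, plus strand). It had 398751, 462690, and 1250029 counts at 0, 10, and 100 μM, or 7.59% of the counts at 0 μM and 21.0% at 100 μM. Its log2 ratio was 2.98 (interval 2.98 to 2.99), and its level at 10 μM was near that at 0 μM, with a ratio of 0.25. The partner miR-10a-5p, with the same seed, lies in the Hoxb cluster and had 53922, 63062, and 119210 counts and a ratio of 2.48. This pair kept to the same side at both doses.

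miR-881-3p, from a fast-evolving X-linked group known from germ cells, had 47423, 34173, and 170434 counts. Its normalized count was 9.07-fold higher at 100 than at 0 μM (log2 ratio 3.18, interval 3.17 to 3.20), although it was lower at 10 μM with a ratio of -0.44. miR-379-5p, the first hairpin of the large Dlk1-Dio3 cluster, had 51469, 42494, and 150320 counts and a ratio of 2.88. Both were thus slightly lower at 10 μM and far higher at 100 μM. miR-127-3p, which lies opposite the imprinted gene Rtl1, had 108309, 119823, and 182528 counts and a ratio of 2.09. miR-99b-5p had 60237, 78214, and 118349 counts and a ratio of 2.31. These abundant miRNAs, with miR-10b-5p and miR-10a-5p, had the narrowest intervals of the higher group.

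The largest ratio of the higher group was that of miR-1247-3p, with 85, 69, and 308 counts and a ratio of 3.18 (2.84 to 3.56). Its hairpin is in an exon of Dio3os, at the far end of the imprinted region (chr12:110278048-110278129, minus strand). miR-30a-3p had 4356, 5127, and 13792 counts (3.00) and miR-151-3p 5184, 6231, and 16249 counts (2.98). For miR-30a the 5p arm was the main strand in all 3 libraries.

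miR-182-5p and miR-183-5p, neighbours in a cluster known from sensory organs, were also high. miR-182-5p had 4143, 5112, and 12386 counts (2.92) and miR-183-5p 2427, 3121, and 6788 counts (2.82). Their neighbour miR-96-5p had 288, 252, and 73 counts and a ratio of -0.64, so this cluster was not higher as a whole. The remaining largest ratios were those of miR-431-3p (2.96), miR-878-5p (2.94), miR-292a-5p (2.93), and miR-106b-3p (2.88).

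Among the lower miRNAs, the most abundant was miR-126a-3p, the endothelial miRNA encoded in an intron of Egfl7 (chr2:26591357-26591429, plus strand). It had 54626, 59970, and 4970 counts and a log2 ratio of -2.12 (-2.16 to -2.08). The other arm, miR-126a-5p, had 9002, 10463, and 409 counts and a ratio of -3.12 (-3.27 to -2.98). Both arms were a little higher at 10 μM than at 0 μM, with ratios of 0.17 and 0.25. They are the whole endothelial marker list, whose summed normalized count was 46170, 52252, and 9855 at 0, 10, and 100 μM, and neither was at 0.

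miR-181a-5p, known from lymphocyte development, had 33988, 30211, and 2617 counts and a ratio of -2.36 (-2.42 to -2.31). miR-20a-5p of the miR-17 cluster, which is linked to cell proliferation, had 18135, 17830, and 1382 counts (-2.38, interval -2.46 to -2.30). miR-19b-3p had 7016, 7210, and 333 counts (-3.06, interval -3.22 to -2.90). At 10 μM their ratios to 0 μM were -0.14, 0.01, and 0.07.

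Lower miRNAs of medium count included miR-410-3p (2152, 2516, and 112 counts, ratio -2.92), miR-140-5p (1495, 1300, and 76 counts, -2.96), and miR-194-5p (1648, 1977, and 105 counts, -2.63). miR-34a-5p, whose gene is a target of p53, had 832, 663, and 63 counts and a ratio of -2.38 (-2.78 to -2.02). The lower miRNAs with few counts at 100 μM, such as miR-376a-5p (191, 131, and 7 counts, -3.38), miR-741-5p (186, 154, and 7 counts, -3.35), and miR-665-3p (132, 82, and 5 counts, -3.32), had intervals 2 or more log2 units wide.

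At 0 counts at 100 μM were miR-8114, miR-92a-1-5p, miR-465d-3p, and miR-6239. Against the floor of 3 counts, miR-8114 (23 counts at 0 μM) was at least 3.04-fold lower with its count at 0 μM taken as exact, miR-92a-1-5p (20 counts) at least 2.64-fold, miR-465d-3p (19 counts) at least 2.51-fold, and miR-6239 (14 counts) at least 1.85-fold lower. The counting interval, which also covers the error at 0 μM, reached a smaller difference, for miR-8114 a log2 ratio of -1.19. The other 7 at the floor had 1 to 3 counts. miR-21b (31, 32, and 1 counts) and miR-21c (29, 31, and 1 counts) differ little in sequence from the far more abundant miR-21a-5p, so their counts are uncertain.

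**Figure D2:**
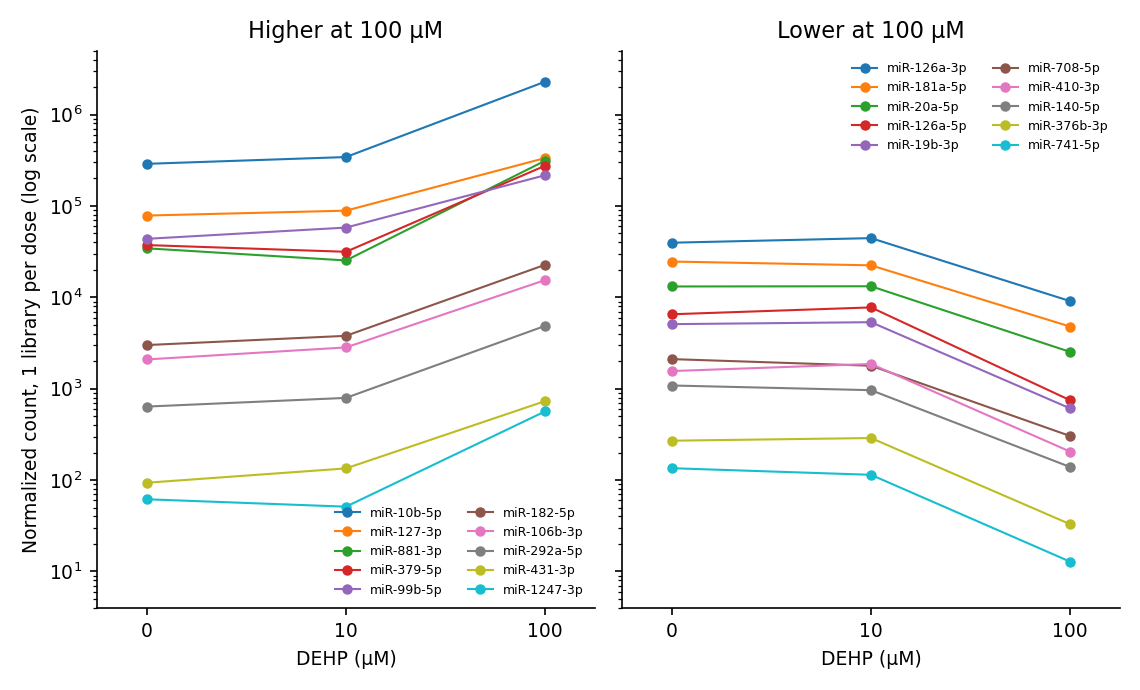
Normalized count (y axis, log scale) at 0, 10, and 100 μM DEHP (x axis), 1 library per dose, for 10 of the higher miRNAs (left) and 10 of the lower miRNAs (right). The doses are evenly spaced categories, and lines join the 3 libraries of 1 miRNA. Log2 ratios of 10 to 0 μM were between -0.44 and 0.52, and every line changes most between 10 and 100 μM.

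The comparisons of 10 and of 100 μM share the 0 μM library. At 10 μM, 0 of the 98 miRNAs had a ratio beyond 2. The 52 higher ones had ratios of -1.44 to 1.35 at 10 μM (median 0.05), 30 of them positive and 22 negative. The 46 lower ones had ratios of -1.84 to 1.15 (median -0.16), 27 of them negative and 19 positive. miR-136-5p was the lower miRNA with the largest part of its difference already at 10 μM, with 2153, 589, and 206 counts and ratios of -1.84 and -2.05. miR-16-1-3p went down and then up, with 513, 184, and 948 counts and ratios of -1.44 and 2.22.

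The ratios depended on the scaling. Scaling to total counts moved the median of the 587 miRNAs by -1.50, and then 4 of them (0.681%) were above 2 and 208 (35.4%) below -2. Under total counts the 52 higher miRNAs had ratios of 0.51 to 1.67 (median 0.91), and 0 of them passed 2 and 21 passed 1. The 46 lower miRNAs had ratios of -5.60 to -3.45 (median -4.20), all below -2. A change of scaling shifts all miRNAs nearly alike, and by less than the threshold here, so the sign of miRNAs chosen beyond 2 could not turn and only the size of the ratio is informative.

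The other scalings were TMM factors, upper-quartile factors, and library sizes that leave out the top 10 miRNAs, which moved the median by 0.08, 0.01, and -0.62. Above 2 were 52 of the 52 with TMM and upper-quartile factors and 19 with the top 10 left out, and below -2 were 43, 45, and 46 of the 46. Under total counts miR-1247-3p and miR-881-3p had the largest ratios of the higher miRNAs, both 1.67. For miR-10b-5p the total-count ratio was 1.47, for miR-379-5p 1.37, for miR-10a-5p 0.96, and for miR-127-3p 0.57.

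The total-count ratio of miR-126a-5p was -4.64 and that of miR-126a-3p -3.64. Over all 587 miRNAs, 291 ratios were positive with size factors and 95 with total counts, so the sign of many smaller ratios depended on the scaling. let-7i-5p, at 1.51 with size factors and -0.01 with total counts, is an example among the 10 most abundant miRNAs at 100 μM.

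**Figure D3:**
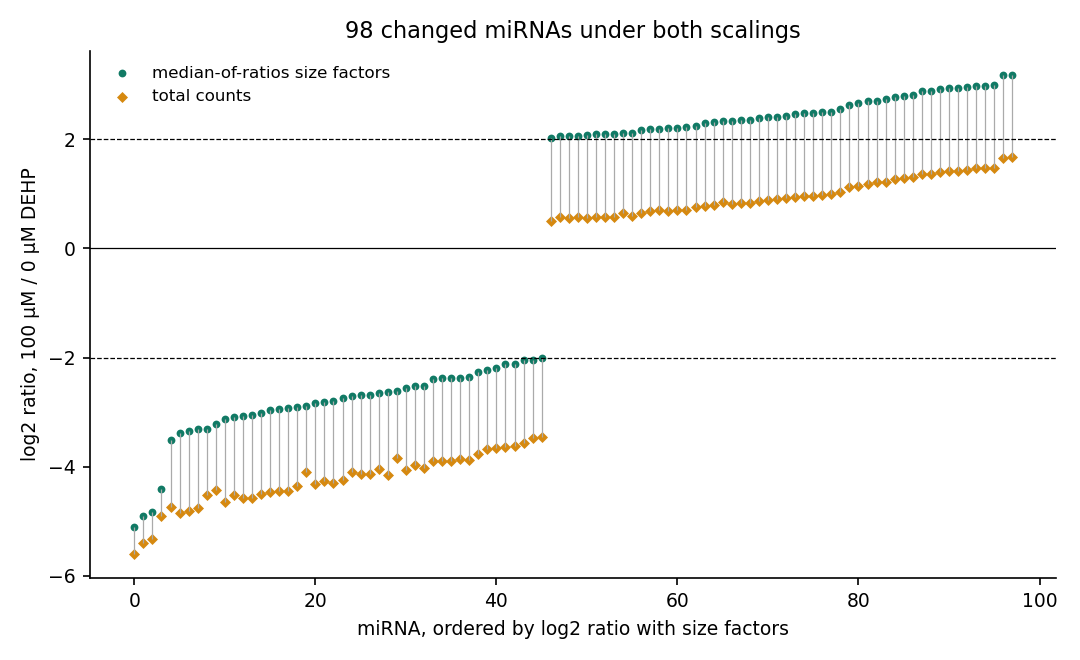
Log2 ratio of 100 to 0 μM (y axis) with size factors (green circles) and with total counts (orange diamonds) for the 98 changed miRNAs, ordered by the ratio with size factors (x axis), with dashed lines at 2 and -2. With total counts the 52 higher miRNAs lie at 0.51 to 1.67 and the 46 lower miRNAs at -5.60 to -3.45.

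By abundance, the higher miRNAs had the larger median count, with members of both groups in every class of 10 normalized counts or more, and the difference was not tested. Abundance was taken at 10 μM, a library on neither side of the ratio, although the size factors and the minimum use it. The median normalized count there was 562 for the higher miRNAs, 86.8 for the lower ones, and 200.3 for all 587. Of the 53 miRNAs with 10000 normalized counts or more (of the 569), 8 were higher and 3 lower. Of the 118 between 1000 and 10000, 14 were higher and 5 lower.

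Between 100 and 1000 the numbers were 13 higher and 12 lower of 174, and between 10 and 100 they were 14 higher and 26 lower of 201. Under 10 normalized counts, 3 of 23 were higher and 0 lower. A miRNA at that level cannot be seen at a much lower level, since the floor at 100 μM is 5.50 normalized counts. It can also pass the minimum by a high count at 100 μM, as the minimum averages all 3 libraries. An example is miR-363-5p, with 11, 8, and 23 counts. The split in this class is thus not informative. The 52 higher miRNAs made up 15.9% of the counts at 0 μM and 37.9% at 100 μM, and the 46 lower ones 2.66% and 0.181%.

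Within a hairpin the scaling between libraries cancels, so the ratio of the 3p to the 5p arm does not depend on it. Both arms passed the minimum for 174 hairpins. The arm ratio shifted by more than 2 on the log2 scale between 0 and 100 μM in 59 of them, or 33.9%, with 33 shifts towards the 3p arm and 26 towards the 5p arm. The interval of the odds ratio lay wholly beyond 2 for 36. Of the 59, 9 hairpins have an arm among the 18 set aside. Arms were paired by name, and some pairs share counts, as miR-465b and miR-465c do for the 3p arm. With miRNAs of identical counts taken as 1, the 59 became 56. At 10 μM only 2 hairpins, miR-15b and miR-33, shifted by more than 2, and the median size of the shift was 0.42 at 10 μM and 1.47 at 100 μM.

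Of the 98 changed miRNAs, 56 have both arms past the minimum, and 36 of these 56 lie in a shifted hairpin, beside 59 of all 174 hairpins. A choice of miRNAs by a large ratio of their own favours a shifted hairpin by construction. The arms themselves were not unequal in number, since the 52 higher miRNAs comprise 24 of 5p and 22 of 3p, and the 46 lower ones 22 and 18. The rest have no arm in the name. All 587 comprise 270 and 274. The arm that gained was the more abundant arm at 10 μM in 39 of the 59 hairpins, against 98 of all 174. The more abundant arm was the other one at 100 than at 0 μM in 24 hairpins, against 6 between 0 and 10 μM.

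In miR-708 the 5p arm had 2907, 2407, and 166 counts and the 3p arm, set aside, 3962, 2935, and 22151. The 3p arm made up 57.7%, 54.9%, and 99.3% of the counts of the hairpin. The shift towards 3p was 6.61 (interval 6.38 to 6.84). In miR-140, encoded in an intron of Wwp2 and known from cartilage, the 5p arm had 1495, 1300, and 76 counts and the 3p arm 20754, 17096, and 41816, a shift of 5.30 (4.97 to 5.63). In miR-106b, from an intron of Mcm7, the 5p arm had 2775, 2058, and 372 counts and the 3p arm 2884, 3817, and 8427, so the 3p share went from 51.0% to 95.8%.

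In miR-151 the 3p share was 87.4% at 0 μM and 99.4% at 100 μM, a shift of 4.62 (4.31 to 4.93). In miR-671, from an exon of Chpf2, the 5p arm with 178, 118, and 16 counts was the main arm at 0 μM and the 3p arm with 66, 91, and 90 counts the main arm at 100 μM. In miR-30a the 3p share was 2.88%, 6.52%, and 21.1%, with a 5p arm of 146987, 73481, and 51497 counts. In miR-431 it was 9.76%, 12.9%, and 46.2%.

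Towards the 5p arm, miR-380 had 717, 646, and 1316 counts of 5p and 320, 253, and 24 of 3p. The 3p share was 30.9%, 28.1%, and 1.79%, a shift of -4.60 (-5.19 to -3.98). miR-221, whose 3p arm targets Kit, had 264, 335, and 615 counts of 5p and 2574, 3687, and 361 of 3p, so that the 3p share was 90.7%, 91.7%, and 37.0% (shift -4.05, -4.31 to -3.79). miR-10b shifted by -4.87 (-5.14 to -4.60) with 1143, 1160, and 122 counts of miR-10b-3p, and miR-10a, let-7i, miR-532, and miR-878 shifted by -4.08, -4.35, -4.20, and -4.03.

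With size factors, the arms of 51 of the 59 hairpins had opposite signs, and with total counts 35 did. A choice by a shift beyond 2 favours opposite signs by construction. Of the 115 hairpins not shifted, the arms of 72 had the same sign with size factors. In 4 hairpins the arms lay beyond 2 in opposite directions with size factors, namely miR-708, miR-140, miR-380, and miR-30e. Limited to the 95 hairpins with at least 100 counts in both arms at 0 μM, 38 were shifted, or 40%. The median GC content was 46.5% for the gaining arms and 45.5% for the losing arms of the 52 shifted hairpins with both sequences, and the gaining arm had the higher GC in 28 and the lower in 23.

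**Figure D4:**
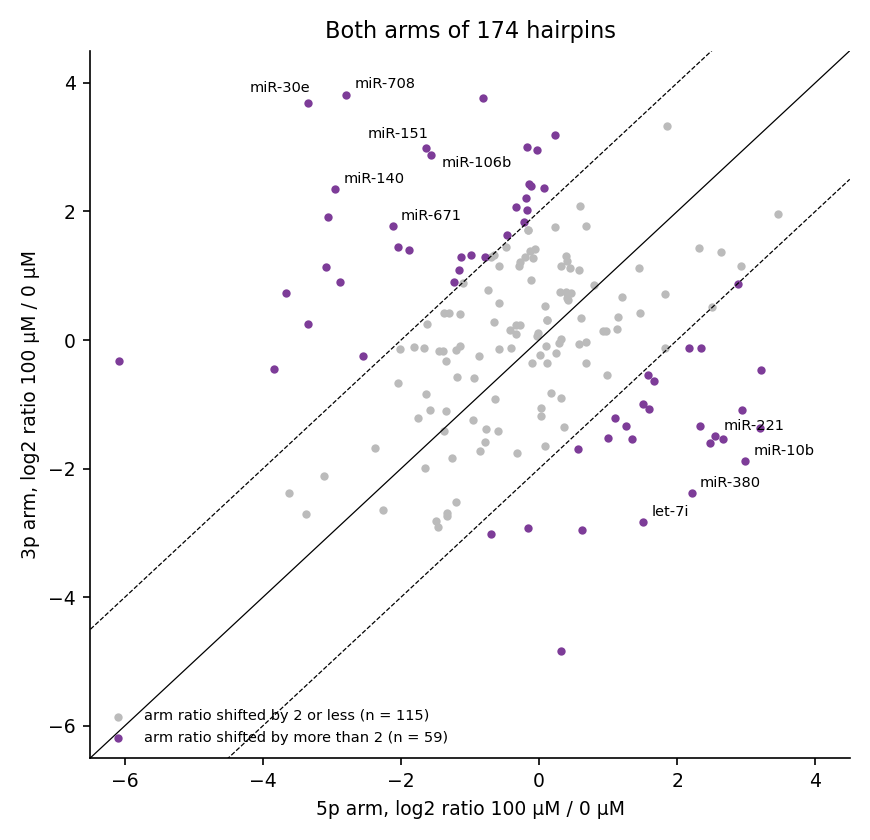
Log2 ratio of 100 to 0 μM of the 3p arm (y axis) against that of the 5p arm (x axis) for the 174 hairpins with both arms past the minimum, 1 library per dose. The solid line marks equal ratios, the dashed lines a difference of 2, and the 59 purple points are hairpins beyond them, 33 towards 3p and 26 towards 5p.

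Of 17 seed families with 3 or more members past the minimum, 8 lay wholly on 1 side of the median of all miRNAs, 3 above and 5 below. Among the 5 is the miR-465-3p family, whose 3 members have identical counts and so count as 1. A family member beyond 2 was found in 10 of the 17, and in 0 of them were there members beyond 2 in both directions. These counts and the family ranges below include the miRNAs set aside. In the families of miR-32-5p (-3.67), miR-148a-3p (3.33), and miR-30e-5p (-3.35), the only member beyond 2 was set aside. Of the 98 changed miRNAs, 9 belong to such a family.

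The miR-17 family (seed AAAGUGC), which shares a seed between the miR-17, miR-106a, and miR-106b clusters, had 6 members, all below the median, with ratios of -2.69 to -0.96 (median -1.59). Its members miR-106a-5p (85, 84, and 5 counts, -2.69) and miR-20a-5p were beyond 2, miR-20b-5p had 126, 133, and 16 counts (-1.62), and miR-17-5p had 9110, 8727, and 1434 (-1.33). The least changed was miR-93-5p, with 9629, 10988, and 1963 counts (-0.96).

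The 4 members of the miR-181 family (ACAUUCA) lay at -3.84 (miR-181c-5p, set aside) to -1.17, with miR-181b-5p at -1.44 and miR-181d-5p at -1.17. The miR-29 family, which targets matrix genes, had 3 members at -1.57 to -0.99. Above the median lay the miR-148/152 family, with ratios of 0.71 to 3.33 (miR-148a-3p, set aside). Also above it lay the miR-200b/200c/429 family, with 0.09 to 1.13. The last was the miR-291a/294/295 family (AAGUGCU), which is known from embryonic stem cells and early germ cells. Of the last, miR-294-3p had 463, 358, and 1192 counts and a ratio of 2.70 (2.54 to 2.86), and miR-295-3p and miR-291a-3p were at 0.97 and 0.93. With total counts the ratio of miR-294-3p was 1.18, while those of miR-295-3p and miR-291a-3p turned negative, at -0.55 and -0.59. The same held for miR-152-3p (-0.81) and for miR-200b-3p, miR-200c-3p, and miR-429-3p (-0.85, -0.38, and -1.42).

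Other families were split. In the miR-99/100 family (ACCCGUA), miR-99a-5p had 167924, 121576, and 26289 counts (-1.34) while miR-100-5p had 47711, 42834, and 69726 (1.88) and miR-99b-5p was at 2.31, and the signs were the same with total counts, at -2.86, 0.37, and 0.79. The 9 members of the let-7 family lay at -1.10 to 1.89 (median 0.03) and 0 of them passed 2. Of 46 seeds with exactly 2 miRNAs, 23 had both on the same side of the median, 18 differed by 1 or less, and 13 differed by more than 2. The 23 and the 18 both include miR-199a-3p with miR-199b-3p, whose counts are identical, and miR-299a-3p with miR-299b-3p, whose counts are nearly so. The likeness within these pairs is thus not informative. miR-99a-3p and miR-99b-3p differed by 4.12, and miR-1193-3p and miR-370-5p by 4.28.

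Hairpins within 10 kb of each other on the same strand formed 30 loci with 3 or more miRNAs past the minimum. Of these, 4 lay wholly on 1 side of the median, 1 above and 3 below, and 18 held a miRNA beyond 2. In 5 of the 18, miRNAs beyond 2 went in both directions. An arm with no entry of its own in the reference was not placed. With 13 such arms put at the hairpin of their partner arm, 3 loci lay on 1 side, 1 above and 2 below, and 7 held miRNAs beyond 2 in both directions. Of the 98 changed miRNAs, 79 had a single hairpin placed and 46 lie in such a locus. Counts in this and the next paragraphs include the miRNAs set aside.

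The miR-17 to miR-92a-1 cluster lies in Mir17hg on chromosome 14 (chr14:115043671-115044506, plus strand). All 8 of its placed miRNAs were below the median, and 5 of them were below -2, beside 9.37% of all 587. miR-92a-1-5p at 0 counts was among the 5, and the median of the 8 was -2.47. At 10 μM the same 8 had ratios of -0.46 to 0.90 (median -0.06). miR-19b-3p (-3.06) and miR-92a-3p (-0.53) of this cluster were not placed. miR-18a-5p had 300, 265, and 20 counts (-2.55) and miR-17-3p 629, 474, and 37 (-2.74), while miR-18a-3p was at -0.24. The X-linked paralog with miR-106a, miR-20b, and miR-363-3p (chrX:52741693-52742567, minus strand) had 3 placed miRNAs, all below, with a median of -1.62, but miR-363-5p, an arm of the same hairpin that was not placed, had 11, 8, and 23 counts and a ratio of 2.33. The other paralog, miR-106b/93/25 in Mcm7 (chr5:138165321-138165818, minus strand), had 6 miRNAs with miR-106b-3p above 2 and miR-25-5p below -2.

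The Dlk1-Dio3 imprinted region on chromosome 12 gave the largest locus, from miR-379 to miR-3072 (chr12:109709060-109747960, plus strand). It holds 51 miRNAs of 32 hairpins over 38.9 kb, which are transcribed from the maternal chromosome. Of the 51 ratios, 26 were positive and 25 negative with size factors, and 8 and 43 with total counts. With size factors 5 were above 2 and 9 below -2, beside 10.4% and 9.37% of all 587, with a median of 0.01. miR-379-5p (2.88), miR-679-5p (2.38), miR-380-5p (2.21), miR-496a-3p (2.19), and miR-382-3p (2.07) were the 5. The 9 included both arms of miR-376a and of miR-154, as well as miR-376b-3p (372, 389, and 18 counts, -3.01), miR-410-3p, miR-377-3p, miR-1197-3p, and miR-380-3p. At 10 μM the 51 had ratios of -1.21 to 0.58.

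Upstream in the same region (chr12:109563692-109595388, plus strand), 20 miRNAs of 11 hairpins had ratios of -3.32 to 3.21. Of these, 4 were above 2 and 2 below -2, beside 10.4% and 9.37% of all 587. miR-673-3p (2.42), miR-431-3p (2.96), and miR-127-3p (2.09) were above 2 with miR-493-5p, which was set aside, and miR-665-3p and miR-136-5p were below -2.

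The X-linked germ-cell group (chrX:66776757-66839125, minus strand) holds 28 miRNAs of 17 hairpins over 62.4 kb. Apart from miR-465d-3p, at 0 counts at 100 μM, its ratios were -3.35 to 3.18. Of the 28, 5 were above 2 and 3 below -2, miR-465d-3p included, beside 10.4% and 9.37% of all 587. At 10 μM the ratios were -1.43 to 0.87. The 5 were miR-881-3p, miR-878-5p (4096, 2738, and 12433 counts, 2.94), miR-470-5p (2.47), miR-465b-5p (2.34), and miR-871-3p (2.20). Those below -2 were miR-741-5p, miR-463-3p (512, 325, and 26 counts, -2.95), and miR-465d-3p. miR-741-3p, the abundant arm beside miR-741-5p, had 16217, 16380, and 7658 counts and a ratio of 0.25.

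In the cluster of Clcn5 introns (chrX:7237683-7248497, minus strand), miR-188-5p (-2.24) and miR-362-3p (-2.53) were below -2 of 8 placed miRNAs, beside 9.37% of all 587. miR-532-5p, an arm of a hairpin of this cluster that was not placed, was the most abundant there, with 11422, 10328, and 28713 counts and a ratio of 2.67. Of 6 miRNAs of the miR-290 to miR-295 cluster (chr7:3218626-3220841, plus strand), 2 were above 2, beside 10.4% of all 587. They were miR-292a-5p (879, 1070, and 2657 counts, 2.93) and miR-294-3p, and the range was -1.44 to 2.93.

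**Figure D5:**
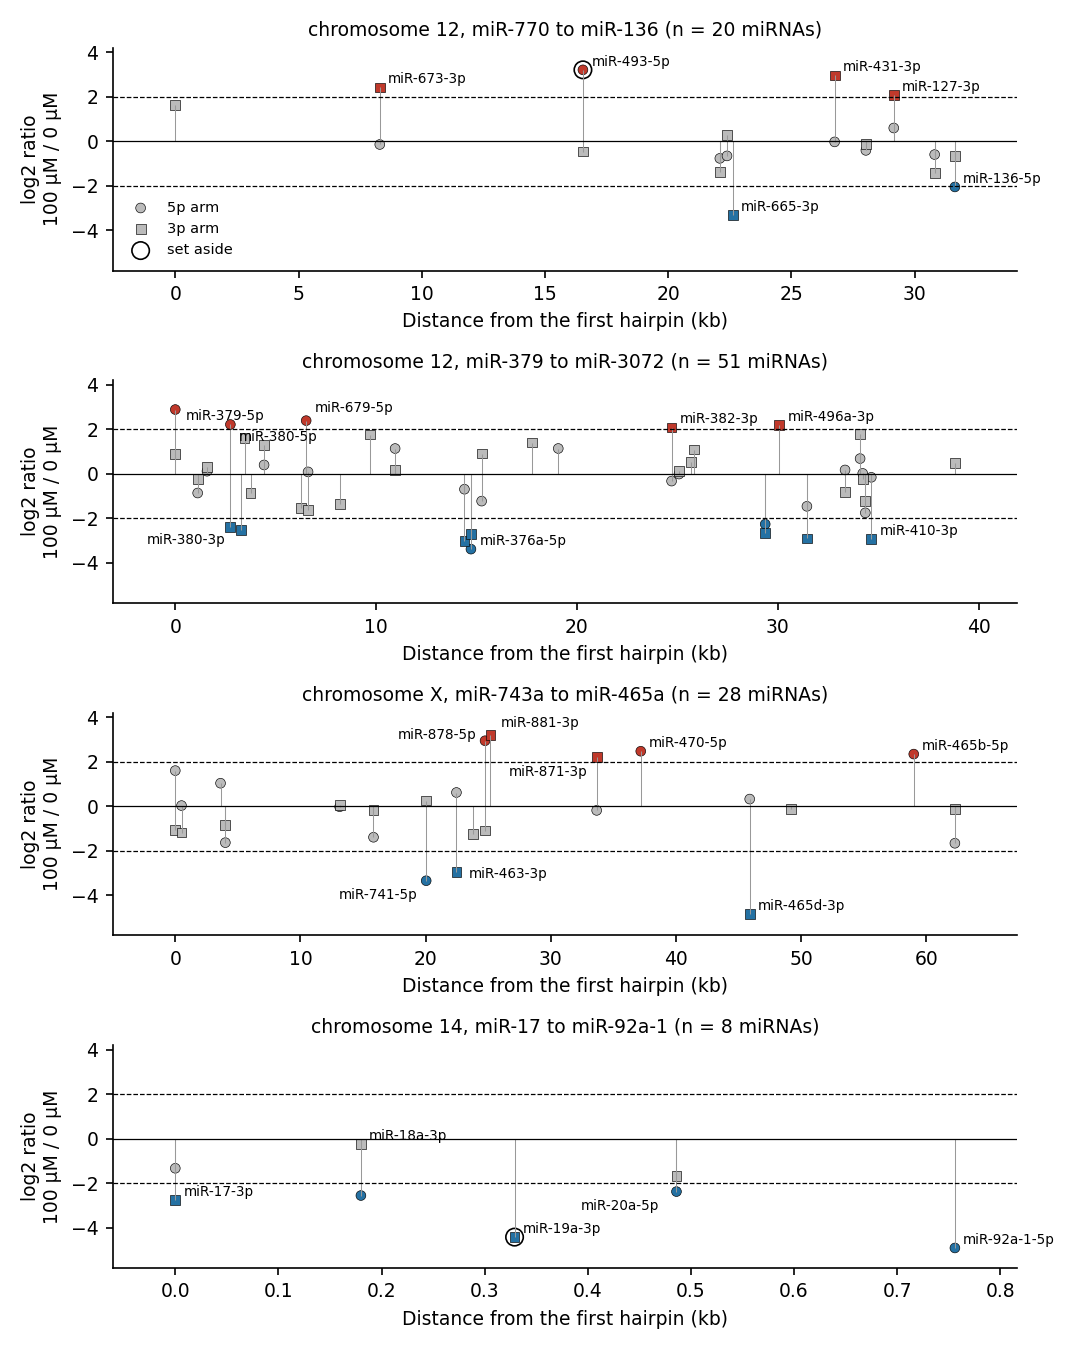
Log2 ratio of 100 to 0 μM (y axis) along 4 loci by distance from the first hairpin in genome order (x axis, kb), with 5p arms as circles and 3p arms as squares, and red or blue for ratios above 2 or below -2. Ratios are with size factors. In the 2 chromosome 12 loci and the X-linked locus ratios of both signs lie side by side (with total counts most are negative, 43 of 51 in the largest), and in the miR-17 to miR-92a-1 cluster all 8 are negative. A ring marks a miRNA set aside.

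Markers of other cell types were read as lists. Of 6 blood-cell miRNAs that passed the minimum, 0 were beyond 2, beside 10.4% of all 587 above 2 and 9.37% below -2. Their median was -0.22, the lowest were miR-142a-3p (-1.98) and miR-142a-5p (-1.65), and with total counts all 6 were negative. Of 5 smooth muscle and mesenchyme miRNAs, 0 were beyond 2, with a median of 0.14 and a range from -1.20 for miR-145a-5p to 1.92 for miR-143-3p, and with total counts 4 of the 5 were negative. The other arm, miR-143-5p, which is not on this list, had 596, 574, and 28 counts and a ratio of -3.06. Of 5 epithelial miRNAs 1, miR-141-3p, was below -2, and it was set aside. Both arms of the gonadal miR-202 lay between -2 and 2, at -0.74 for 5p and 0.78 for 3p.

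Above 2 were 10.4% of all 587 miRNAs. The early germ cell list had 2 of 8 above 2 and a median of 0.95, which under total counts was -0.57 with 2 positive and 6 negative. The X-linked germ-line list had 4 of 11 above 2 and a median of 0.25, which under total counts was -1.26 with 4 positive and 7 negative. The part of changed cell numbers in the lower miR-126a and in the germ-cell ratios was not tested.

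Of the p53-linked list, 2 of 3 were below -2 (median -2.38), beside 9.37% of all 587, of which miR-34b-5p was set aside.

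As to sequence, the 46 higher miRNAs with a RefSeq sequence had a median GC content of 49.0%, the 42 lower ones 45.5%, and all 497 with a sequence 47.6%. Adenine was the first base in 13.0% of the higher, 38.1% of the lower, and 26.8% of all. Cytosine was the first base in 28.3%, 14.3%, and 20.7%. Median length was 22 bases in all 3 sets. By GC class, with miRNAs set aside left out, miRNAs under 40% had 9 higher and 14 lower of 97. Those of 40 to 50% had 14 higher and 16 lower of 171, and those of 50% or more 23 higher and 12 lower of 212. Beside these, 52 were higher and 46 lower of all 569 not set aside. Across the miRNAs with a sequence, which share the 2 libraries compared, Spearman's rho of log2 ratio and GC content was 0.17 and Pearson's r 0.15.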

How the data were processed

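The authors made small RNA libraries from pooled ovaries, aligned the trimmed reads to the mouse genome (bowtie2), quantified miRNAs (miRDeep2), and deposited raw counts, whole numbers for each mature miRNA and precursor. The submitters' processing notes name mm10 and DESeq2, and other versions are not given in the sources used here. The table has 961 rows for 627 IDs, since 79 IDs fill several rows, and for each ID the row of highest total was kept.

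R 4.3.3 gave size factors over the 3 libraries (DESeq2 1.42.0) and the TMM and upper-quartile alternatives (edgeR 4.0.16). Further analysis was done in Python 3.11.15, pandas 2.3.3, SciPy 1.17.1, and matplotlib 3.10.9, and the scripts were tested on simulated data. Each log2 ratio compares normalized counts plus 0.5, needs a mean of at least 10, and was called beyond 2. A count of 3 or fewer was the floor. Arm ratios were compared by an odds ratio with 0.5 added to each count. Intervals at 95% and floors cover counting error only, since reads that carry no molecular identifier need not be separate molecules. No test with replicates was possible. Hairpin positions came from GENCODE M21 on GRCm38, and mature sequences from RefSeq.

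The members and lists were chosen with earlier results of these data known. Named miRNAs were the 12 largest rises and falls whose whole interval lay beyond 1, the 5 most abundant in each direction, those above 2 under total counts, hairpins with a shifted arm ratio, members of families and loci with 3 or more miRNAs beyond 2, marker lists (1 of which is not reported here), and the 10 most abundant at 100 μM. Others were named after their values were seen (members just inside or outside the threshold, at the floor, or with a large difference at 10 μM, members of the other families, loci, and seed pairs described, and further examples).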

Additional observations from a re-analysis of the deposited data

How the results depend on the processing

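No paired analysis was possible because each concentration has 1 library, and for the same reason no replicate could be left out. The 61 miRNAs above 2 became 4 with total counts, 28 with library sizes without the 10 most abundant miRNAs, and 157 with a threshold of 1. The 55 below -2 became 208, 110, and 151 under the same alternatives and 25 with a mean of at least 100. The share of higher among the changed miRNAs was 52.6%, against 1.89% with total counts, 20.3% when the top 10 were left out, 66.7% with a mean of at least 100, and 48.4% with no minimum. The 59 hairpins with a shifted arm ratio became 36 with a mean of at least 100, 115 with a threshold of 1, and 38 with at least 100 counts in both arms. The 4 loci on 1 side became 2 with a mean of at least 100 and 3 with unplaced arms put beside their partners. The difference in median GC content between higher and lower miRNAs, 7.14 points over all that changed, became 2.27 points with total counts and 2.55 when the top 10 were left out. Apart from the scalings, a stricter minimum and another threshold count other miRNAs by construction, and no cause was tested. No miRNA beyond 2 changed sign under the scalings run, which the threshold fixes, while smaller ratios did, 291 of 587 being positive with size factors and 95 with total counts. TMM, upper-quartile factors, 1 normalized count added, and summed rows left each count within 1.5 times. Alternatives added after seeing the data left out the miRNAs at the floor, counted miRNAs with identical counts as 1, asked for 100 counts in both arms, and placed arms with their partners. Depth limits the lower miRNAs most, 11 of the 46 having 3 counts or fewer at 100 μM.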

Other observations

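Arm ratios also shifted in hairpins of which 1 arm or both were set aside. In miR-30e, with both set aside, the 5p arm had 37713, 16972, and 1468 counts at 0, 10, and 100 μM and the 3p arm 3570, 4512, and 18304, so the 3p share was 8.65%, 21.0%, and 92.6% (shift 7.04). In miR-200a the 3p share was 97.4%, 97.3%, and 61.1%, a shift of -4.58 towards the 5p arm. In miR-34b the 3p share was 7.01%, 15.8%, and 58.5%.

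In miR-335 and miR-423 the main arm changed although neither arm was beyond 2. The 3p share was 37.9%, 39.6%, and 75.1% in miR-335 and 67.3%, 70.2%, and 26.5% in miR-423.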
